A study of Caenorhabditis elegans with 6 samples.

Results

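Mitochondria in worm muscle are remodelled by fusion, fission, transport along microtubules and mitophagy, the removal of damaged organelles by autophagy. Here 7 nuclear genes that carry out these steps were followed, of the 46756 genes in the count table: fzo-1 and eat-3 (fusion), drp-1 (fission), miro-1 (transport), and pink-1, pdr-1 and dct-1 (mitophagy). They were chosen by gene symbol, not by their values, though with earlier results of these data known. The reason was that exophers, the large vesicles that body wall muscle releases, can carry mitochondria. All 7 passed the minimum of 10 counts summed over the libraries and were among the 18428 genes tested. Transcripts for fusion, fission, transport, PINK-1 and Parkin did not pass the test between the growth conditions. The level of dct-1 was 1.20-fold higher in worms grown 10 per plate, short of an absolute log2 fold change of 1 in every fit. Its adjusted p was 0.217 in edgeR and 0.0451 in DESeq2.

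RNA was collected from whole hermaphrodites on adulthood day 2, from 3 libraries of worms grown 10 per plate and 3 libraries of solitary worms, grown 1 per plate, on NGM with E. coli OP50 at 20°C. Every library came from strain ACH93 in the N2 wild-type background, in which the muscle promoter of myo-3 drives 2 transgenes, a wrmScarlet-tagged RPN-5 that marks exophers and a GFP carried to the mitochondrial outer membrane by the start of TOMM-20. The control worms therefore carry the mitochondrial reporter too, and reads of tomm-20 can come from it. Library totals lay between 55176436 and 62794403 counts and overlapped between the conditions. The question was whether growth among other hermaphrodites, a condition in which the study counts exophers, alters the transcripts of the machinery that shapes and clears mitochondria. In whole worms, fewer cells of a type and less RNA per cell cannot be told apart, and a change confined to muscle is diluted by other tissues.

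Fusion of the outer membranes needs FZO-1, the worm mitofusin, and fusion of the inner membranes needs EAT-3, the OPA1 ortholog. DRP-1 is the dynamin-related GTPase that constricts and divides mitochondria, and MIRO-1 is the outer membrane GTPase that links them to motors. PINK-1 is a kinase that collects on damaged mitochondria and PDR-1, the worm Parkin, is the ubiquitin ligase that acts with it. DCT-1, related to mammalian BNIP3 and NIX, is an outer membrane receptor for mitophagy.

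The genes lie on 4 chromosomes of WBcel235, and all are protein-coding. fzo-1 (WBGene00001509, chromosome II, 5833328 to 5836203, minus strand) has 8 exons in 1 transcript. eat-3 (WBGene00001134, chromosome II, 9324874 to 9329665, plus strand) is the longest of the 7 genes, with 3288 exonic bases in 9 exons. drp-1 (WBGene00001093, chromosome IV, 5538488 to 5541365, plus strand) has 4 annotated transcripts. miro-1 (WBGene00019544, chromosome IV, 4712825 to 4715807, minus strand) has 1 transcript of 8 exons. pink-1 (WBGene00017137, chromosome II, 5393293 to 5395694, minus strand) has 1 transcript of 7 exons. The exons of these 5 genes share 0 bases with other annotated genes. pdr-1 (WBGene00003967, chromosome III, 13771513 to 13773345, plus strand) shares 107 of its 1320 exonic bases with mdt-29, on the same strand. dct-1 (WBGene00015776, chromosome X, 7954354 to 7956225, plus strand) shares 31 of its 1209 exonic bases with sfxn-2 on the opposite strand. Reads from the bases shared with mdt-29 cannot be separated by strand and could be left out or assigned to the wrong gene. The strand setting of the counting is not given in the sources used here, so the same could hold for the bases shared with sfxn-2.

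All 7 genes were well expressed. On a scale per exonic length (TPM, the share of transcripts scaled to a common sum in each library), pdr-1 had the highest mean over the 6 libraries, 131 TPM, with a range of 125 to 135. drp-1 followed at 111 TPM (105 to 118.8), and its range did not reach that of pdr-1. fzo-1 (mean 74.4 TPM), eat-3 (73.5) and miro-1 (69.8) had ranges over the libraries that overlapped with their neighbours in this order. Within libraries, miro-1 lay below fzo-1 and below eat-3 in all 6, whereas fzo-1 exceeded eat-3 in 4 of 6. pink-1 lay below them at 57.4 TPM (54.4 to 61.8). dct-1 was lowest, at 23.5 TPM (20.1 to 28.0), the single gene of the 7 below the median of 32.9 TPM over the 10172 protein-coding genes with a mean count of at least 100. The level of pdr-1 exceeded 84.2% of those genes and that of dct-1 exceeded 43.7%.

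**Figure D1:**
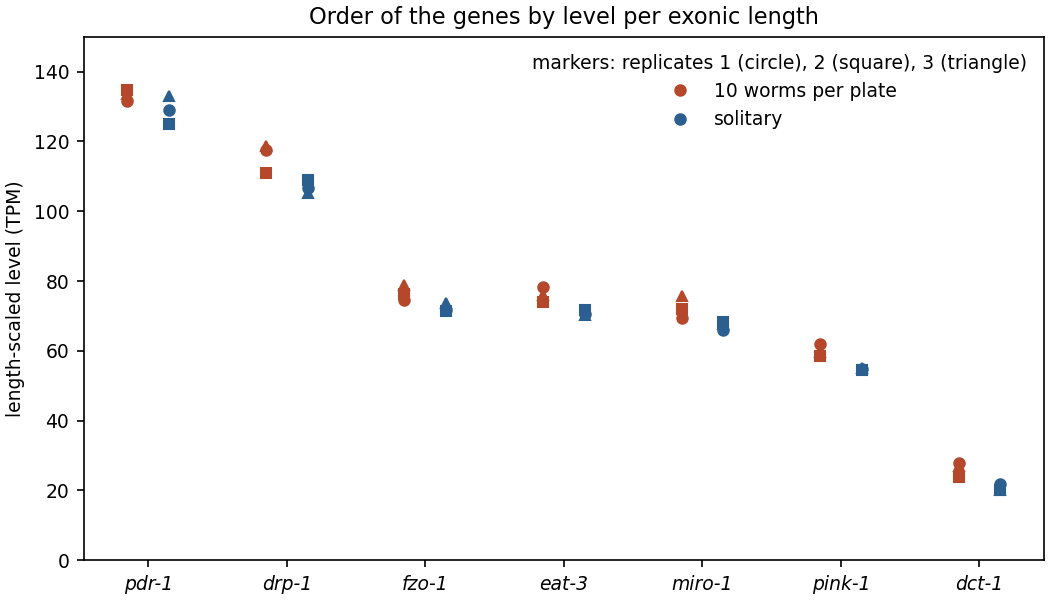
Length-scaled level (TPM, y axis) of the 7 genes in each library, ordered by their mean over the 6 libraries, with worms grown 10 per plate left and solitary worms right of each position. pdr-1 and drp-1 stand above the others at means of 131 and 111 TPM, and dct-1 stands below at 23.5 TPM.

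The levels of the 2 fusion genes varied little between libraries. In CPM, counts over the library total scaled by edgeR's TMM factors, fzo-1 had 134, 137 and 137 CPM in worms grown 10 per plate, against 135, 134 and 138 CPM in solitary worms. The ranges of the conditions lay almost on top of each other, and over all 6 libraries the log2 CPM of fzo-1 had an SD of 0.016. Of the 10491 genes with a mean count of at least 100, 0.257% had a smaller spread than fzo-1, against a median SD of 0.097 for that set. The log2 fold change of fzo-1, worms grown 10 per plate over solitary worms, was 0.0042 (standard error 0.036, edgeR adjusted p = 0.980). The p-values named edgeR come from its quasi-likelihood F-test, adjusted by the Benjamini-Hochberg method over every tested gene. The 95% interval of fzo-1 ran from 0.949-fold to 1.06-fold.

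eat-3 had 182, 172 and 171 CPM in worms grown 10 per plate, against 173, 175 and 169 CPM in solitary worms. Replicate 1 of the worms grown 10 per plate was the highest of the 6 libraries, and replicates 2 and 3 fell between the lowest and highest solitary values. Its log2 fold change was 0.020 (standard error 0.040, edgeR adjusted p = 0.892), with a 95% interval from 0.954-fold to 1.08-fold.

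For the fission gene drp-1, the libraries held 205, 193 and 200.4 CPM in worms grown 10 per plate, against 195, 199 and 191 CPM in solitary worms. The conditions overlapped, with the lowest value in a solitary library and the highest in a library of worms grown 10 per plate. The log2 fold change was 0.034 (standard error 0.040, edgeR adjusted p = 0.802), and the 95% interval reached from 0.963-fold to 1.09-fold. miro-1 had 102, 106 and 108 CPM in worms grown 10 per plate, against 102, 105 and 103 CPM in solitary worms. Its ranges overlapped too, and the log2 fold change was 0.024 (standard error 0.039, edgeR adjusted p = 0.870), with a 95% interval from 0.958-fold to 1.08-fold.

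Of the genes for PINK-1 and Parkin, pink-1 had 92.6, 87.2 and 86.5 CPM in worms grown 10 per plate, against 86.0, 85.5 and 85.6 CPM in solitary worms. The 3 solitary libraries differed by less than 1 CPM, and the worms grown 10 per plate were above them in every library, in 2 of them by little. The log2 fold change was 0.051 (standard error 0.041, edgeR adjusted p = 0.677), with a 95% interval from 0.974-fold to 1.10-fold. pdr-1 had 122.9, 126 and 121 CPM in worms grown 10 per plate, against 126, 122 and 129 CPM in solitary worms, with overlapping ranges. It was the single gene of the 7 with a negative log2 fold change, -0.033 (standard error 0.039, edgeR adjusted p = 0.799, 95% interval from 0.921-fold to 1.04-fold). Its neighbour mdt-29, which shares bases with it, had 70.7, 72.8 and 67.7 CPM in worms grown 10 per plate, against 72.8, 78.0 and 77.4 CPM in solitary worms (log2 fold change -0.11, standard error 0.046, edgeR adjusted p = 0.364).

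**Figure D2:**
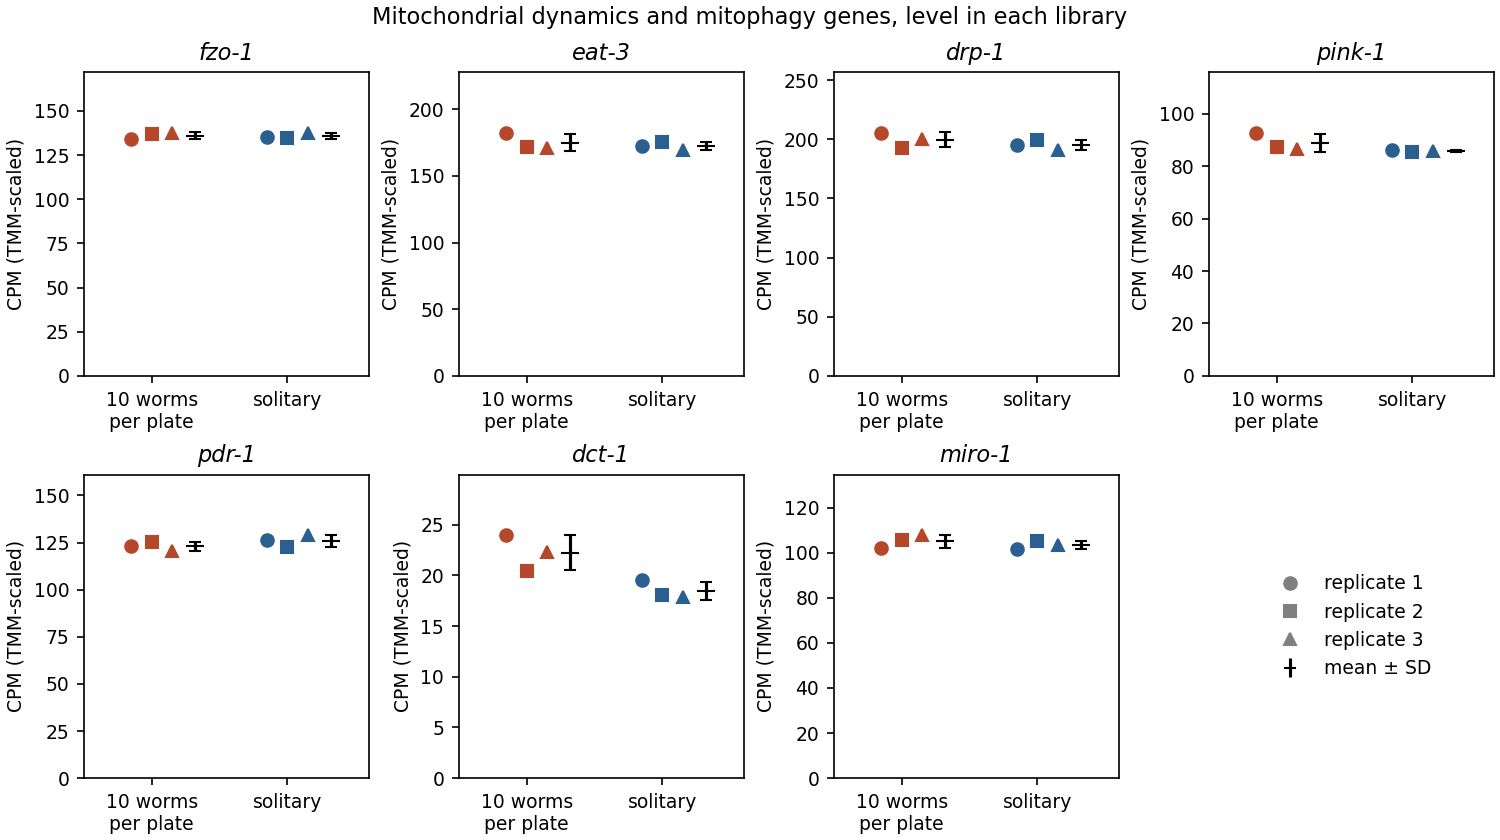
Level of each gene (TMM-scaled CPM, y axes from 0) for 3 libraries from worms grown 10 per plate and 3 solitary libraries, with the mean and SD beside the points. The conditions lie close together for 6 genes, and for dct-1 the worms grown 10 per plate (20.4 to 24.0 CPM) lie above the 3 solitary libraries (17.9 to 19.5 CPM).

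The mitophagy receptor gene dct-1 differed most between the conditions. It had 24.0, 20.4 and 22.3 CPM in worms grown 10 per plate, against 19.5, 18.04 and 17.9 CPM in solitary worms, from 1486, 1217 and 1308 counts in worms grown 10 per plate and 1061, 1099 and 1043 counts in solitary worms. The groups did not overlap, although replicate 2 of the worms grown 10 per plate lay within 1 CPM of solitary replicate 1. The mean was 22.2 ± 1.76 CPM in worms grown 10 per plate and 18.5 ± 0.896 CPM in solitary worms (SD, n = 3 libraries each), a difference of 0.27 on the log2 scale (standard error 0.081) or 1.20-fold, with a 95% interval from 1.06-fold to 1.36-fold. The unadjusted p was 0.0067, but over all genes tested the edgeR adjusted p was 0.217, so dct-1 did not pass the threshold. With DESeq2's Wald test on the same genes, the test of the study's methods, the log2 fold change was 0.27 (standard error 0.087) with an adjusted p of 0.0451, under 0.05 but far short of the fold threshold, an absolute log2 fold change of 1. The adjustments covered different genes, since DESeq2 gave an adjusted p to 9136 of the 18428 genes and edgeR to all. Whether dct-1 reached an adjusted p under 0.05 thus differed between the tests, and the part of the genes adjusted over was not tested. Of the 10491 genes with a mean count of at least 100, 402 (3.83%) had a log2 fold change at least as large as that of dct-1. Counting error alone gave each library's dct-1 value a 95% Wilson half-width of 5.09% to 6.07%. sfxn-2, which shares bases with dct-1, had 6.96, 6.18 and 6.29 CPM in worms grown 10 per plate, against 7.83, 6.91 and 6.12 CPM in solitary worms, with overlapping ranges and a log2 fold change of -0.10 (standard error 0.12, edgeR adjusted p = 0.804).

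In the 6 edgeR fits that omitted 1 library, dct-1 had log2 fold changes of 0.21 to 0.32 and unadjusted p values of 0.0043 to 0.0396. It was higher in worms grown 10 per plate in all 15 alternative fits. Replicate 3 of the worms grown 10 per plate and solitary replicate 2 stood apart in the cuticle collagen genes rol-6 and dpy-13, described with the epidermis markers, and in the fit without both libraries dct-1 was at 0.24 (standard error 0.12, unadjusted p = 0.067, edgeR adjusted p = 0.705). For the other 6 genes the lowest adjusted p in any alternative fit was 0.495, for pink-1.

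None of the 7 genes (0 genes) passed an adjusted p under 0.05 together with an absolute log2 fold change above 1, where 0.0109% of all tested genes did (2 of 18428). When the fold threshold was dropped, edgeR again gave 0 of 7, against 0.239% of all tested genes. An unadjusted p under 0.05 was reached by 1 of 7, dct-1, against 11.9% of all tested genes. DESeq2's Wald test gave 1 of 7, dct-1, an adjusted p under 0.05, against 4.76% of the 9136 genes to which it assigned an adjusted p. The lowest library of worms grown 10 per plate exceeded the highest solitary library in CPM for 2 of 7, dct-1 and pink-1, against 8.51% of all tested genes. In TPM this count was 6 of 7, pdr-1 being the exception, against 19.2% of the tested genes with a length. The scales were centred differently. The median log2 ratio over genes with a mean count of at least 100 was 0.076 in TPM and -0.0054 in CPM. The conditions were therefore compared in CPM and in the fit, and TPM was used to order the genes.

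Across all genes, log2 fold changes varied with exonic length, and each gene was also fitted with that trend taken out. At the lengths of these genes the trend amounted to a log2 difference between the conditions of 0.065 for eat-3 and 0.042 for fzo-1, both long genes, and of -0.018 for pdr-1 and -0.026 for dct-1, the shortest of the 7. With the trend removed, 3 of the 7 log2 fold changes were above 0, against 6 of 7 without that step. fzo-1 moved to -0.038, eat-3 to -0.045 and drp-1 to -0.0052, so the directions of these 3 genes depended on the processing. dct-1 kept its direction, at 0.29 (standard error 0.080, unadjusted p = 0.0033, edgeR adjusted p = 0.581). Over the whole table, 1259 genes had an unadjusted p under 0.05 after this step, against 2193 before it.

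**Figure D3:**
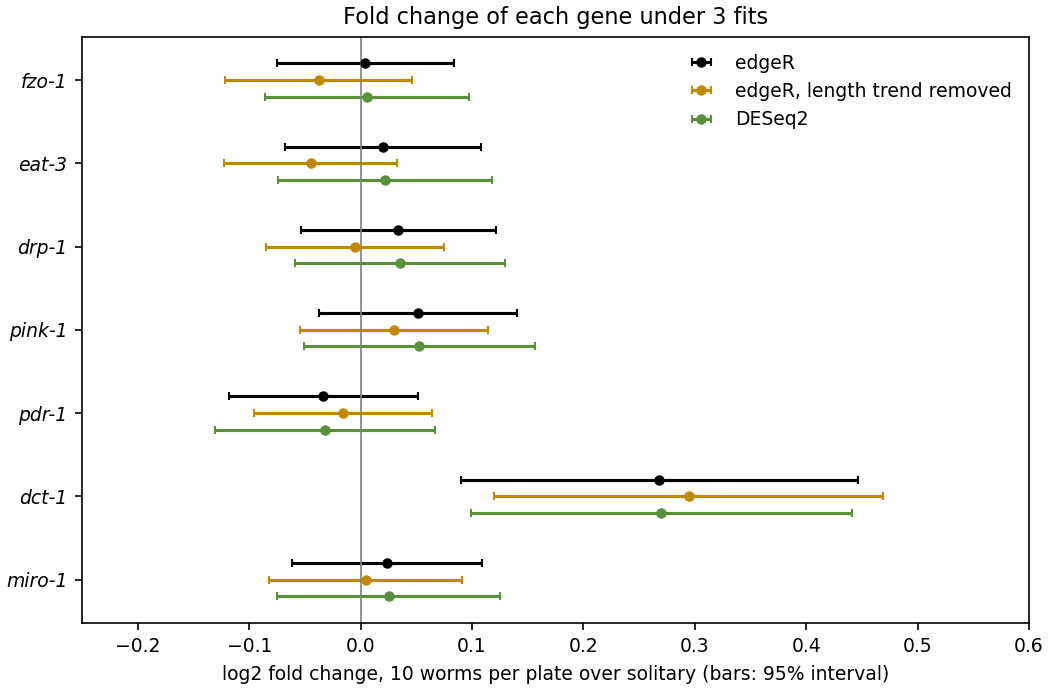
Log2 fold change of each gene, worms grown 10 per plate over solitary worms (x axis), with its 95% interval under edgeR, edgeR with the length trend removed, and DESeq2. The intervals of 6 genes include 0 under each fit, with fzo-1, eat-3 and drp-1 changing sign once the length trend is removed, and the interval of dct-1 lies above 0 under each.

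Ratios between genes within a library do not depend on the scaling between libraries. The ratio of fission to outer membrane fusion transcripts, drp-1 over fzo-1 per exonic base, was 1.577, 1.453 and 1.503 in worms grown 10 per plate, against 1.487, 1.526 and 1.427 in solitary worms. drp-1 over eat-3 averaged 1.52 ± 0.036 in worms grown 10 per plate and 1.51 ± 0.0072 in solitary worms (SD, n = 3 each). The balance of fission and fusion transcripts thus had overlapping values in both conditions. The ratio of the fusion genes, fzo-1 over eat-3, averaged 1.01 ± 0.048 in worms grown 10 per plate and 1.02 ± 0.030 in solitary worms (SD, n = 3 each). miro-1 over drp-1 averaged 0.626 ± 0.032 in worms grown 10 per plate and 0.630 ± 0.012 in solitary worms. For pink-1 over pdr-1 the values were 0.470, 0.433 and 0.447 in worms grown 10 per plate, against 0.424, 0.436 and 0.414 in solitary worms, which overlapped in 1 pair of libraries. dct-1 over pink-1 was 0.452, 0.410 and 0.451 in worms grown 10 per plate, against 0.397, 0.369 and 0.365 in solitary worms. It was the 1 ratio of the 6 in which the conditions did not overlap, with a log2 difference of 0.22 between the means of the log2 ratios. Because this ratio is built from the dct-1 counts described above, it is not a separate result. How often ratios of other gene pairs fail to overlap was not counted.

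**Figure D4:**
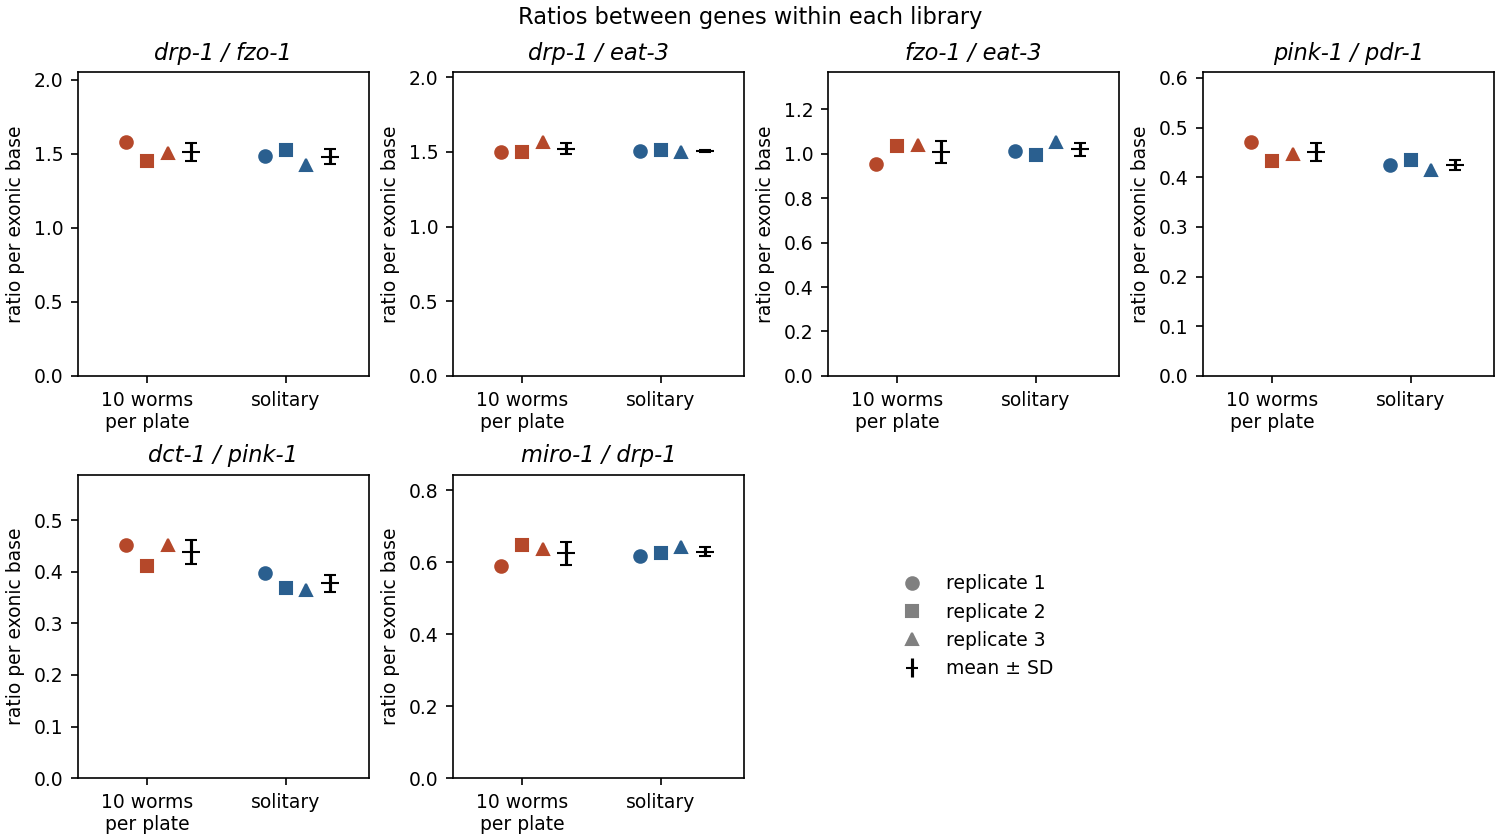
Ratio of the counts per exonic base of pairs of genes within each library (y axes from 0), with the mean and SD. The 3 libraries of worms grown 10 per plate lie above the 3 solitary libraries for dct-1 over pink-1 (0.410 to 0.452 in worms grown 10 per plate, against 0.365 to 0.397 in solitary worms), and the conditions overlap for the other 5 ratios.

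The gene whose pattern over the 6 libraries was nearest to each of the 7 was sought among 10484 other genes with a mean count of at least 100, by the root mean square difference of the log2 CPM after subtraction of each gene's mean. For fzo-1 this was nol-58, at a distance of 0.0038, and 1957 genes lay within 0.05 of it. For eat-3 it was C44E4.5 (0.0089), for drp-1 ptr-2 (0.0081), for miro-1 dsb-1 (0.0088), for pink-1 chdp-1 (0.0065) and for pdr-1 F55H2.7 (0.0065), each with 1302 or more genes within 0.05. Such near matches were thus common for these flat patterns. For dct-1 the nearest was tbc-7, at a distance of 0.029, and 17 genes lay within 0.05. tbc-7 had 9.13, 7.95 and 8.48 CPM in worms grown 10 per plate, against 7.79, 6.96 and 7.06 CPM in solitary worms. Over these libraries, replicate 1 was the highest of its condition for tbc-7 and for dct-1 alike. Because tbc-7 was picked by its likeness to dct-1 over the same libraries, this shared order is not a separate result.

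Further genes of mitochondrial dynamics and mitophagy were read from the same fit, in lists drawn up with earlier results of these data known. Among 14 tested partners of fusion, fission and cristae (fis-1 missed the count minimum), 0 passed at the adjusted p in edgeR, against 0.239% of all tested genes. An unadjusted p under 0.05 was reached by 4, all of them lower. Of the 18428 genes tested, 1237 were lower at that p, and 11.9% reached it in either direction. Of the 14, 13 had a log2 fold change below 0, with a median of -0.059, against a median of 0.0026 over all tested genes. The smallest unadjusted p values belonged to moma-1, a cristae-organising protein, which averaged 95.5 ± 0.703 CPM in worms grown 10 per plate and 107 ± 2.80 CPM in solitary worms (SD, n = 3 each, log2 fold change -0.16, edgeR adjusted p = 0.142), and to fis-2, a Fis1 homolog (log2 fold change -0.20, edgeR adjusted p = 0.220). DESeq2 gave moma-1 an adjusted p of 0.0340, the 1 gene of the 14 under 0.05 in that test. Whether moma-1 passed at the adjusted p thus depended on the processing. Its adjusted p was under 0.05 in 3 of 15 alternative fits, against 1 of 15 for dct-1. Besides DESeq2, these were the edgeR fits without a count minimum (edgeR adjusted p = 0.0320) and without solitary replicate 3 (0.0335). The inner membrane protease gene ymel-1 was the 1 gene of the list above 0, at 0.032, and lay at -0.011 with the length trend removed. These genes are short, with a median of 929 exonic bases against 1223 over all tested genes. Once the trend with length was taken out, the list had a median of -0.049, against 0.014 over all tested genes. In that fit 5 of the 14 were above 0, and moma-1 was at -0.072 and fis-2 at -0.094. The 4 genes with an unadjusted p under 0.05 all lost it there (edgeR, 0.104 for moma-1 and 0.158 for fis-2), and another gene of the list gained it. Over all tested genes, 1259 of 18428 had such a p in that fit.

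Among 17 tested partners of mitophagy and of import through the outer membrane, 1 had an adjusted p under 0.05 in edgeR, against 0.239% of all tested genes, and 7 had an unadjusted p under 0.05 (1 higher and 6 lower), against 11.9% of all tested genes. The gene that passed was tomm-7, a small subunit of the translocase whose human counterpart helps to hold PINK1 on depolarised mitochondria. It had 30.9 ± 2.18 CPM in worms grown 10 per plate and 40.5 ± 2.10 CPM in solitary worms (SD, n = 3 each). On the log2 scale it fell by 0.39 (standard error 0.067, edgeR adjusted p = 0.0492), and its values did not overlap between the conditions. All libraries of worms grown 10 per plate likewise lay below all solitary libraries for 1812 of the 18428 tested genes. tomm-7 has 288 exonic bases, and with the length trend removed its log2 fold change was -0.15 (edgeR adjusted p = 0.709). In DESeq2 the adjusted p of tomm-7 was 7.1e-05, and in edgeR without a count minimum it was 4.48e-06. The adjusted p was not under 0.05 in 11 of 15 alternative fits. Among them was each fit that left out 1 library other than solitary replicate 3 (edgeR adjusted p between 0.0681 and 0.280). The median log2 fold change of the list was -0.045, with 6 genes above 0 and 11 below. With the length trend removed it was 0.0079, with 10 of 17 above 0. In that fit tomm-7 alone of the list had an unadjusted p under 0.05 (0.0323 in edgeR), against 1259 of the 18428 tested genes. ubc-18, a ubiquitin-conjugating enzyme gene, had a log2 fold change of -0.13 (edgeR adjusted p = 0.238), which was -0.036 with the length trend removed. On the higher side, ikke-1, a kinase gene that acts in the clearance of paternal mitochondria, was at 0.089 and the autophagy adaptor gene sqst-1 at 0.15 (edgeR adjusted p = 0.380 for ikke-1 and 0.514 for sqst-1). ikke-1 was at 0.028 with the length trend removed, and sqst-1 ran from 0.079 without solitary replicate 3 to 0.24 without solitary replicate 1.

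Among 7 tested genes of mitochondrial transport, fold changes lay between -0.031 and 0.066 on the log2 scale. An unadjusted p under 0.05 was reached by 0 of them, against 11.9% of all tested genes. ric-7 (0.066), which axonal mitochondria need for transport, and the kinesin light chain gene klc-2 (0.035) lay above 0, and the metaxin genes mtx-1 (-0.030) and mtx-2 (-0.031, and 0.030 with the length trend removed) below. The Miro-related pseudogenes miro-2 and miro-3 were not analysed here.

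The 12 protein genes of the mitochondrial genome gave summed levels of 8956, 7286 and 7287 CPM in worms grown 10 per plate, against 7731, 8199 and 7735 CPM in solitary worms, with overlapping ranges (two-sided exact permutation test, p = 1.0). By edgeR, 0 of them passed at the adjusted p, against 0.239% of all tested genes. An unadjusted p under 0.05 was reached by 1, against 11.9% of all tested genes. That was ND4L, of 235 exonic bases, with a log2 fold change of -0.41 (edgeR adjusted p = 0.144, DESeq2 adjusted p = 0.0101), or -0.14 with the length trend removed. COX2 followed among the lower genes at -0.12, and ND4 (0.14) and ND5 (0.12) were the higher genes with the smallest p. Without replicate 1 of the worms grown 10 per plate, ND4 was at -0.022 and ND5 at 0.0024, so both values rested on that library. The libraries were enriched for polyA RNA, which limits what the level of mitochondrial transcripts says about their amount. Among 12 genes of the mitochondrial stress response and mitochondrial DNA upkeep, 0 passed at the adjusted p in edgeR, against 0.239% of all tested genes. An unadjusted p under 0.05 was reached by 2, against 11.9% of all tested genes. The 2 were the ubiquitin-like gene ubl-5 (log2 fold change -0.28, edgeR adjusted p = 0.165, DESeq2 adjusted p = 0.0245) and hmg-5, the worm TFAM (-0.12, edgeR adjusted p = 0.218). With the length trend removed ubl-5, of 327 exonic bases, was at -0.061 and hmg-5 at -0.053. dve-1 (0.21) and lin-65 (0.053), both chromatin factors of that response, were the higher genes with the smallest p.

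**Figure D5:**
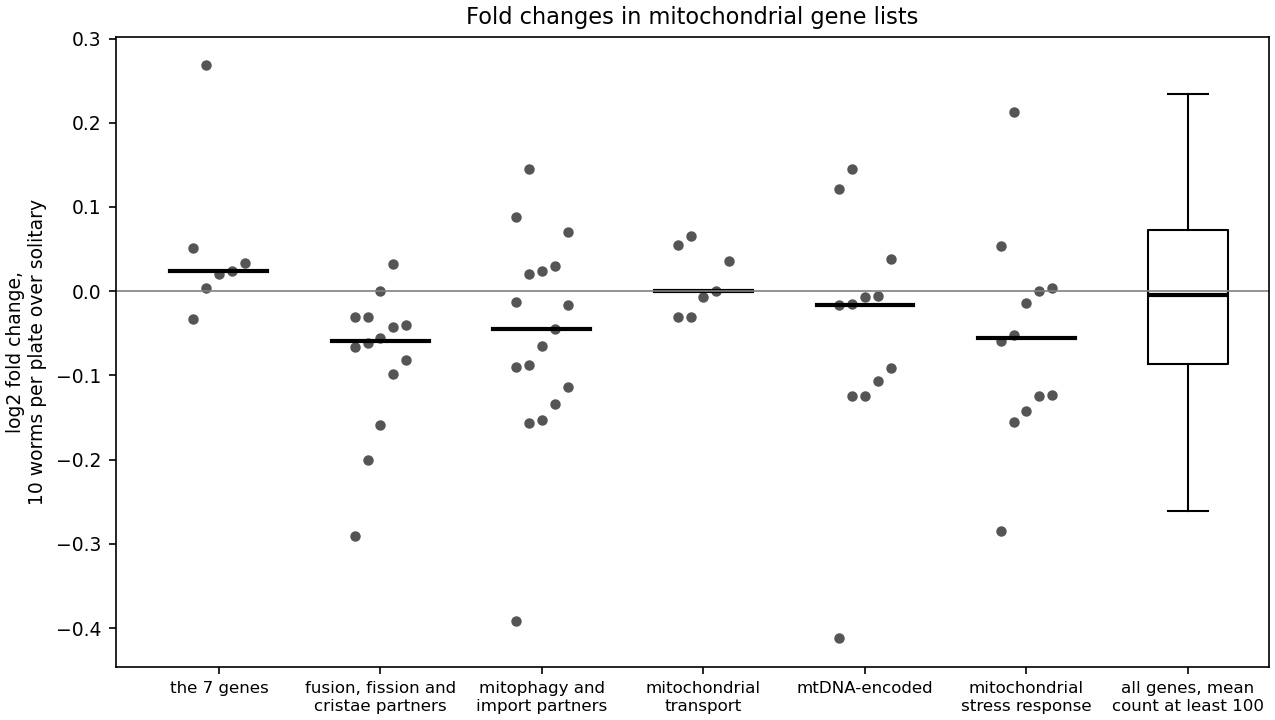
Log2 fold change of each gene, worms grown 10 per plate over solitary worms (y axis), for the 7 genes and 5 further mitochondrial lists, with the median as a bar, beside a box of all genes with a mean count of at least 100 (quartiles, whiskers from the 5th to the 95th percentile). The 7 genes have a median of 0.024, which is -0.0052 with the length trend removed, and the fusion and fission partners have a median of -0.059, which is -0.049 with that trend removed.

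Markers of tissues were summed in each library to describe its make-up. The 12 body wall muscle markers summed to 2427, 2516 and 2444 CPM in worms grown 10 per plate, against 2712, 2692 and 2517 CPM in solitary worms. The conditions did not overlap but nearly touched (p = 0.1 in a two-sided exact permutation test, its lower limit with 3 libraries per condition). In log2 fold change 5 markers were above 0 and 7 below. An unadjusted p under 0.05 in edgeR was reached by 7 of the 12, 2 of them higher and 5 lower, against 11.9% of all tested genes. These markers are long, with a median of 2953.5 exonic bases. With the length trend removed, 2 of the 12 were above 0 in log2 fold change. The median was then -0.092, against 0.014 over all tested genes. Epidermis markers, 6 genes, summed to 141, 191 and 181 CPM in worms grown 10 per plate, against 228, 208 and 200.2 CPM in solitary worms (p = 0.1 in the same exact permutation test). Of the 6, 4 had a log2 fold change above 0. They were dpy-7, rol-6, dpy-13 and elt-3, with standard errors of 0.97, 2.12, 2.03 and 0.10. The adult collagen gene col-19 made up 91.1% of that sum in worms grown 10 per plate and 93.3% in solitary worms. The collagen gene rol-6 had 1, 4 and 154 counts in worms grown 10 per plate, against 3, 135 and 4 counts in solitary worms, and dpy-13 had 4, 16 and 359 counts in worms grown 10 per plate, against 13, 320 and 15 counts in solitary worms. In each condition 1 library was thus far above the others for both genes. Markers of intestine, neurons, germ line and sperm overlapped between the conditions, with p between 0.3 and 0.9 in the same exact permutation test, and the germ line markers ranged from 5818 to 6130 CPM in worms grown 10 per plate, against 5668 to 5931 CPM in solitary worms. For germ line markers, 6 of 7 had a log2 fold change above 0, and with total counts in place of TMM the exact permutation p of their sum was 0.1, the smallest possible. Reads of unc-54, a muscle marker, and unc-119, a neuron marker, can come in part from the transgenes, which carry pieces of both genes. Of the 6 sperm markers, 3 passed the count minimum and 2 had 0 counts, while no marker of the other tissues was at 0. The summed muscle markers were thus lower in the libraries in which dct-1 was higher, and the part of tissue make-up in the level of dct-1 was not tested.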

How the data were processed

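Per the labels and the study's methods, the authors trimmed reads with Trimmomatic (0.36), aligned them with STAR (2.5.2b) to WBcel235, and counted unique reads within exons with featureCounts of Subread (1.5.2). The deposited counts per gene were not normalized and were used as they stand. A second deposited table of normalized values was not used. Symbols came from a table of WormBase identifiers (43798 of 46756 identifiers matched), and coordinates and exonic lengths (union of exons) from the Ensembl annotation of WBcel235. The mitochondrial genes were named by overlap with RefSeq genes of that assembly.

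The fit took genes whose counts added up to 10 or more across the 6 libraries, in edgeR 4.0.16 (R 4.3.3) with TMM normalization, a robust quasi-likelihood fit of growth condition and Benjamini-Hochberg adjustment over all genes (common biological coefficient of variation 0.116). A gene was called at an adjusted p below 0.05 with a log2 fold change beyond 1 in either direction. Each standard error was obtained by dividing the size of the log2 fold change by the square root of F. Replicates of one condition differed by more than sampling noise (chi-square per degree of freedom 5.93 to 23.1), so each counts as 1 library. The titles call them biological replicates, and the number of worms pooled per library is not given in the sources used here. The p-values thus refer to spread between libraries. The edgeR fit pools that spread in part over genes, so its p-values and intervals do not measure 1 gene's own spread. For fzo-1 the standard error was 0.036, beside an SD of 0.016 in log2 CPM over the 6 libraries. Totals of 55176436 to 62794403 counts set the precision, and Wilson intervals cover counting error only.

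Alternatives comprised DESeq2 1.42.0, edgeR with the size factors of DESeq2 or with total counts, a fit with no minimum count, one after filterByExpr, a block for the replicate number, a length trend removed per library (lowess, span 0.3), each library left out and no fold threshold, and DESeq2 without a fold threshold and a fit without the 2 libraries high in rol-6 and dpy-13 were added once the data were known. The edgeR fit, with and without the length trend, and DESeq2 were tested on simulated counts. The 7 genes, lists and alternatives were chosen with earlier results of these data known. The named genes are the 7, any listed gene with an adjusted p under 0.05, up to 2 genes per list and direction by unadjusted p, and the nearest pattern to each of the 7. mdt-29 and sfxn-2 were named because they share exonic bases with pdr-1 and dct-1. col-19, rol-6 and dpy-13 were named after their values had been seen. Protein sequences were not used here.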

Additional observations from a re-analysis of the deposited data

How the results depend on the processing

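The count of called genes was 2 in the edgeR fit with both thresholds. It was 1 with DESeq2, 1 with total counts, 1 with filterByExpr and 57 without a count minimum. With the length trend removed, with or without the replicate block, it was 0. The 2 edgeR calls were lower in worms grown 10 per plate and the DESeq2 call was higher, so these tests shared no called gene. Without a fold threshold the count of called genes was 44 in edgeR and 435 in DESeq2. With 1 library left out it ran from 0 to 70, the 70 in the fit without solitary replicate 3 and 0 in each of the other 5 fits, where 1611 to 1985 genes had an unadjusted p under 0.05. With the length trend removed that number was 1259. Without both libraries high in rol-6 and dpy-13 (replicate 3 of worms grown 10 per plate and solitary replicate 2), also added once the data were known, the count was 0, with 1246 genes at an unadjusted p under 0.05, and fzo-1 was at -0.0150. The cause was not tested. The count among the 7 genes was 0 in every fit except DESeq2 without a fold threshold, an alternative added once the data were known, which gave 1 (dct-1, DESeq2 adjusted p = 0.0451, in a range of 0.0451 to 0.705 over its alternatives).

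With the length trend removed, without and with the replicate block, log2 fold changes changed sign for fzo-1 (-0.0378 and -0.0377), eat-3 (-0.0450 and -0.0452), drp-1 (-0.0052 and -0.0054), ymel-1 (-0.0112 and -0.0113) and mtx-2 (0.0296 and 0.0290). With 1 library left out, that of fzo-1 ran from -0.0068 to 0.0133 and that of eat-3 from -0.0138 to 0.0360, that of klc-2 from -0.0075 to 0.0694 and that of ND4 from -0.0217 to 0.246.

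Deviations of the libraries gave no consistent pairing by replicate number. Whether libraries of equal number share a day or batch is not given in the sources used here. The deviations of same-numbered libraries from their condition's mean correlated at 0.086, -0.249 and -0.246 over 10491 genes. Replicates 2 and 3 of worms grown 10 per plate correlated best with solitary replicates 3 and 2 (0.269 and 0.299). The pair at 0.299 is made of the 2 libraries high in rol-6 and dpy-13, so these correlations cannot decide whether a batch is shared. The replicate block gave 2 called genes, 24 genes with an adjusted p under 0.05, and a log2 fold change of 0.27 for dct-1 (edgeR adjusted p = 0.273).

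Lengths taken from coding sequence put dct-1 at 33.3 TPM and fzo-1 below eat-3 (63.4 and 65.0 TPM). The median of 32.9 TPM given above is on the scale of exonic lengths, so 33.3 TPM cannot be set against it. The exact permutation p of the summed muscle markers was 0.2 with total counts in place of TMM. The log2 ratio of the summed levels turned from -0.0083 with TMM to 0.0180 with total counts for the mitochondrial genome and from -0.0094 to 0.0196 for the neuron markers. At 3 libraries per condition, 1 gene's exact permutation p cannot fall under 0.1, and for the 6 genes other than dct-1 the 95% intervals still allow values from 0.921-fold to 1.10-fold.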
